A study of Mus musculus with 16 samples.

Results

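Nfam1 (NFAT activating protein with ITAM motif) and 7 genes whose products receive or relay the same kind of signal were followed across all 16 libraries of mouse monocytes. The 8 genes were chosen by symbol from the 13085 genes of the table, and all 8 were found and passed the filter on low values. Besides Nfam1 they are the adaptors Tyrobp and Hcst, the kinases Lyn, Syk and Btk, the scaffold Blnk and the phospholipase Plcg2. Monocytes of C57BL/6 mice were kept in culture for 6 or 24 h, either unstimulated or after IFN-γ together with MegaCD40L, a multimer of CD40 ligand given at 1 ug/mL. The mice were NFAM1+/+ or NFAM1-/-, and the knockout came from zygotes in which Cas9 and a pair of guides removed exons 2 and 3, with both genotypes bred from NFAM1+/- parents. Each combination of stimulus and time has 4 libraries. At 6 h these are 2 libraries per genotype. For 4 of the 24 h libraries the title says one genotype and the tag the other, so 1 library per genotype and stimulus is left there, and all 16 libraries enter only the comparisons of stimulus and time. Libraries are called here by the number in their titles. The labels name blood as the source of the monocytes and the study's methods name bone marrow, and they give different doses of IFN-γ. The study names fewer mice than there are libraries here, so some libraries probably share a mouse. No source says which, and the tests treat libraries as independent. Thus p-values measure only the spread between these libraries, which may be technical.

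An ITAM is a pair of tyrosines, each followed at a fixed distance by leucine or isoleucine, in the cytoplasmic tail of a receptor or adaptor. Src-family kinases such as LYN phosphorylate both tyrosines, SYK docks on them, and SYK with BTK and the scaffold BLNK then activates PLCG2, whose products raise calcium and can activate NFAT. TYROBP (DAP12) carries an ITAM for receptors that lack a tail of their own, and HCST (DAP10) carries a Tyr-x-x-Met motif that recruits PI3-kinase. In myeloid cells this route serves Fc receptors, TREM and CD300 family receptors and C-type lectins.

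The motif codons are shown because they define the members that carry a signal across the membrane. They were read from GENCODE vM21 transcripts (GRCm38; the labels name GRCm39, so positions are those of the reference and not of the table). Capitals mark the codons for the tyrosines and for the leucine, isoleucine or methionine at the end of each motif.
Tyrobp: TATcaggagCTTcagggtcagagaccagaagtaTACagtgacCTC
Fcer1g: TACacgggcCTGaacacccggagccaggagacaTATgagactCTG
Nfam1: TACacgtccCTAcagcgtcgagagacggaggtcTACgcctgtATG
Nfam1, end of the coding sequence: TATgaaaatCTC
Hcst: TACatcaacATG
Tyrobp and Fcer1g, the ITAM adaptor of Fc receptors, shown for comparison, each hold the pair with 7 codons between the motifs. Nfam1 holds a pair with the same 7 codons between, in which the last position is a methionine codon, and a single Tyr-x-x-Leu in its last 4 codons. These letters were the same in the 3 Nfam1 transcripts examined, each with 6 exons. The Nfam1 pair lies across exons 4 and 5 of 6 (minus strand, chr15:83001463-83010380 from end to end, introns included) and the single motif in exon 6 (chr15:82999739-82999750). Neither lies in exons 2 and 3, as these transcripts number them. Exons 2 and 3 hold 396 of 639, 361 of 672 and 431 of 792 coding bases of the 3 transcripts. The study places the start codon of the most common transcript in exon 2. For transcripts that start in exon 1 it reports that the deletion shifts the reading frame of exons 4 to 6. The place of the motifs therefore does not say that they are still translated.

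Nfam1 itself lies on the minus strand of chromosome 15 (GRCm38, 82992973 to 83033306). Exons 2 and 3 make up 5.65% to 15.3% of the length of these 3 transcripts, so a sum of reads over the gene, which is what the table holds, is no direct readout of the deletion. Tyrobp (plus strand) and Hcst (minus strand) face each other on chromosome 7 with 126 bp between their ends. The libraries did not keep the strand, and no exonic base is shared between the 2 genes in GENCODE vM21; reads that run past an annotated end were not tested.

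The libraries held 48295939 to 88514341 reads on the listed genes, and values are log2 CPM, read counts relative to a library size that the authors scaled. In every pair of libraries of a class the reads differed by more than sampling noise, with a chi-square per gene of 19.6 to 180, so none was counted as a duplicate. Reads on listed genes over the scaled size came to 0.756 to 0.788 in unstimulated libraries, 1.24 to 1.32 in those stimulated for 6 h and 0.97 to 0.997 in those stimulated for 24 h. The choice of scaling therefore bears on the stimulated values at 6 h: the median log2 fold change of all 12782 genes tested was -0.13 as deposited and -0.86 with each library's own total of reads. The libraries expressed Lyz2 (2667 to 23256 CPM) and Csf1r (605 to 3286 CPM), as monocytes do. Of 9 monocyte markers 7 were lower with the stimulus at 6 h and 8 at 24 h, and their summed level was 22606 to 30736 CPM without and 7744 to 11562 CPM with the stimulus. Lyz2 made up most of that sum, at 15690 to 23256 CPM without and 2667 to 7390 CPM with the stimulus. Ly6c2 went the other way, from 345 to 503 CPM up to 2200 to 2505 CPM at 6 h. At 24 h it went from 446 to 530 CPM up to 2125 to 2965 CPM, and Fcgr3 was higher at 6 h only. In bulk libraries fewer cells of a type and less RNA of its markers per cell cannot be told apart.

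Nfam1 was the member with the largest fall on stimulation. Without a stimulus at 6 h its level was 432 and 408 CPM in NFAM1+/+ and 299 and 321 CPM in NFAM1-/- libraries. After 6 h of IFN-γ plus MegaCD40L it was 133 and 129 CPM in NFAM1+/+ and 135 and 127 CPM in NFAM1-/-. The 4 stimulated libraries lay close together, and all of them were below all 4 unstimulated ones. The fall was 2.76-fold (log2 -1.46, SE 0.11, adjusted p = 1.94e-09 by limma with Benjamini-Hochberg adjustment over all genes tested). At 24 h the unstimulated libraries held 441, 463, 495 and 391 CPM and the stimulated ones 201, 271, 252 and 223 CPM, in the order 43 to 46 and 55 to 58. The groups again did not overlap, and Nfam1 was 1.9-fold lower (log2 -0.92, SE 0.11, limma adjusted p = 9.65e-07). The order of its mean levels was therefore unstimulated 24 h (447 ± 43.5 CPM, SD, n = 4), unstimulated 6 h (365 ± 64.8), stimulated 24 h (237 ± 30.8) and stimulated 6 h (131 ± 3.71). The first 2 overlapped between libraries, and each other neighbour in that order did not.

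**Figure D1:**
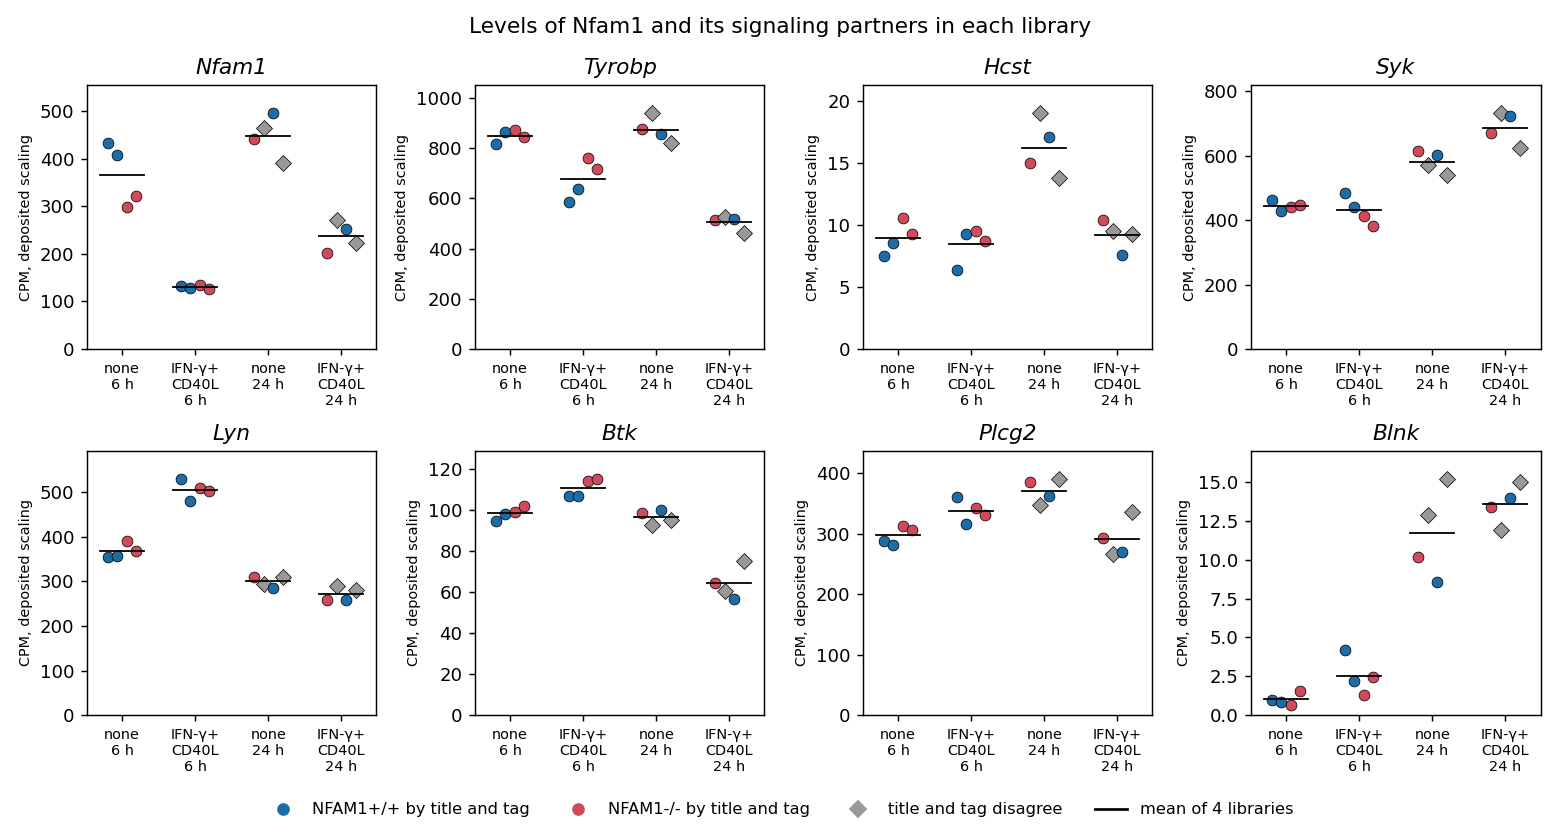
Level of each member in every library in CPM as deposited (y axis, from 0), by stimulus and time (x axis), with a bar at the mean of 4 libraries. Nfam1 falls with the stimulus at both times, Blnk is at 0.683 to 4.2 CPM at 6 h and reaches 8.57 to 15.2 CPM at 24 h, and the NFAM1-/- points lie below the NFAM1+/+ points for Nfam1 in unstimulated cells at 6 h.

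Of the 8 members 6 passed at an adjusted p under 0.05 for the stimulus at 6 h (limma), 4 higher and 2 lower, where 76.9% of all genes tested passed, 34.3% higher and 42.6% lower. For 5 members the stimulated and unstimulated libraries did not overlap, as for 71.9% of all genes. Only Nfam1 and Blnk passed with a change of at least 2-fold as well, beside 39.6% of all genes. The members' median log2 fold change was 0.06, and that of all genes was -0.13. At 24 h 7 of 8 passed, 6 of them lower and 1 higher, beside 73.3% of all genes passing, 37.4% higher and 35.9% lower. For 6 members the groups did not overlap, as for 68.9% of all genes. None reached 2-fold, which 33.2% of all genes did. The members' median was then -0.48 and that of all genes 0.01. The counts of members that passed are near the background, so passing as such sets none of them apart.

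Among the adaptors, Tyrobp was the most abundant member per length in each class, at 1272 ± 36.2 CPM per kb of exonic length without a stimulus at 6 h, where Lyn, the next, stood at 90.2 ± 3.95. In unstimulated libraries at 6 h it stood at 817, 865, 870 and 842 CPM, and in the stimulated ones at 587, 636, 762 and 715 CPM, in the order NFAM1+/+, NFAM1+/+, NFAM1-/-, NFAM1-/-. All 4 stimulated values were below all unstimulated ones, and Tyrobp was 1.26-fold lower (log2 -0.34, SE 0.07, limma adjusted p = 5.59e-04). At 24 h it fell further, from 819 to 938 CPM without to 461 to 526 CPM with the stimulus, a log2 change of -0.79 (SE 0.07, limma adjusted p = 4.33e-08).

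Hcst was a low-level gene, at 8.99 ± 1.34 CPM without and 8.46 ± 1.45 CPM with the stimulus at 6 h (SD, n = 4 each). These libraries overlapped and the difference did not pass (log2 -0.09, 95% interval -0.41 to 0.22, limma adjusted p = 0.576). At 24 h it stood at 15, 19, 17.1 and 13.8 CPM without and 10.4, 9.51, 7.61 and 9.26 CPM with the stimulus, without overlap, 1.76-fold lower (log2 -0.82, SE 0.15, limma adjusted p = 9.66e-05). Both adaptors are also used by NK cells. Of 6 NK cell markers only Klrd1 is among the listed genes, and it fell at both times, from 13.8 to 17.7 CPM down to 3.74 to 5.14 CPM at 6 h and from 13.4 to 21 CPM down to 0.3 to 0.444 CPM at 24 h. Klrk1 (NKG2D), which is not on that marker list and signals through HCST, rose at both times, as given below. Tyrobp was lower at both times and Hcst passed only at 24 h. The part of NK cells in the adaptors' levels was not tested.

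Lyn, the Src-family kinase that starts the cascade and can also feed inhibitory receptors, moved in opposite directions at the 2 times on the deposited scale. At 6 h it was 355, 356, 390 and 369 CPM without and 529, 479, 509 and 503 CPM with the stimulus. The groups did not overlap, and Lyn was 1.38-fold higher (log2 0.46, SE 0.05, limma adjusted p = 6.14e-07). At 24 h it was 286 to 310 CPM without and 257 to 290 CPM with the stimulus, an overlap of the groups, with a log2 change of -0.14 (SE 0.05, limma adjusted p = 0.0238). That call was lost when library 43, 46, 55 or 57 was left out (adjusted p 0.0625 to 0.0819) and when libraries were centred on their medians (0.0547).

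Syk, the kinase that docks on phosphorylated ITAMs, did not pass at 6 h. It stood at 464, 428, 441 and 448 CPM without and 486, 442, 414 and 382 CPM with the stimulus (log2 -0.05, 95% interval -0.20 to 0.10, limma adjusted p = 0.517). At 24 h all 4 stimulated libraries (672, 732, 722 and 625 CPM) were above all unstimulated ones (614, 571, 601 and 541 CPM). Syk was the only member that passed higher at that time, by 1.18-fold (log2 0.24, SE 0.07, limma adjusted p = 0.00644), and without the 4 libraries whose genotype labels disagree the adjusted p was 0.0923.

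Btk, the TEC-family kinase that phosphorylates PLCG2, was 94.7 to 102 CPM without and 107 to 115 CPM with the stimulus at 6 h. The 2 ranges did not meet, but the difference was small (log2 0.17, SE 0.07, limma adjusted p = 0.0313). At 24 h Btk fell from 92.9 to 99.8 CPM without to 64.4, 60.7, 56.6 and 75.2 CPM with the stimulus, a 1.51-fold decrease (log2 -0.60, SE 0.07, limma adjusted p = 4.91e-07).

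Plcg2 followed Btk. It stood at 282 to 312 CPM without and 316 to 361 CPM with the stimulus at 6 h (log2 0.18, SE 0.07, limma adjusted p = 0.0274), and at 347 to 390 CPM without and 267 to 336 CPM with it at 24 h (log2 -0.36, SE 0.07, limma adjusted p = 2.40e-04). Neither pair of groups overlapped. The calls of Btk and Plcg2 at 6 h were each lost when 1 of 4 libraries was left out: libraries 1, 2, 11 or 12 for Btk (adjusted p 0.0551 to 0.0796) and libraries 1, 2, 26 or 11 for Plcg2 (0.0552 to 0.0799).

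Blnk, the scaffold that joins SYK to PLCG2 in B cells, was the least abundant member per length in each class. At 6 h it was 0.996, 0.826, 0.683 and 1.57 CPM without and 4.2, 2.2, 1.27 and 2.43 CPM with the stimulus, values that rest on 51 to 230 reads per library. The groups overlapped, and the fold change of 2.38 passed (log2 1.25, SE 0.30, limma adjusted p = 0.00117). At 24 h it was 10.2, 12.9, 8.57 and 15.2 CPM without and 13.4, 11.9, 14 and 15 CPM with the stimulus, and the difference did not pass (log2 0.24, 95% interval -0.40 to 0.88, limma adjusted p = 0.487).

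**Figure D2:**
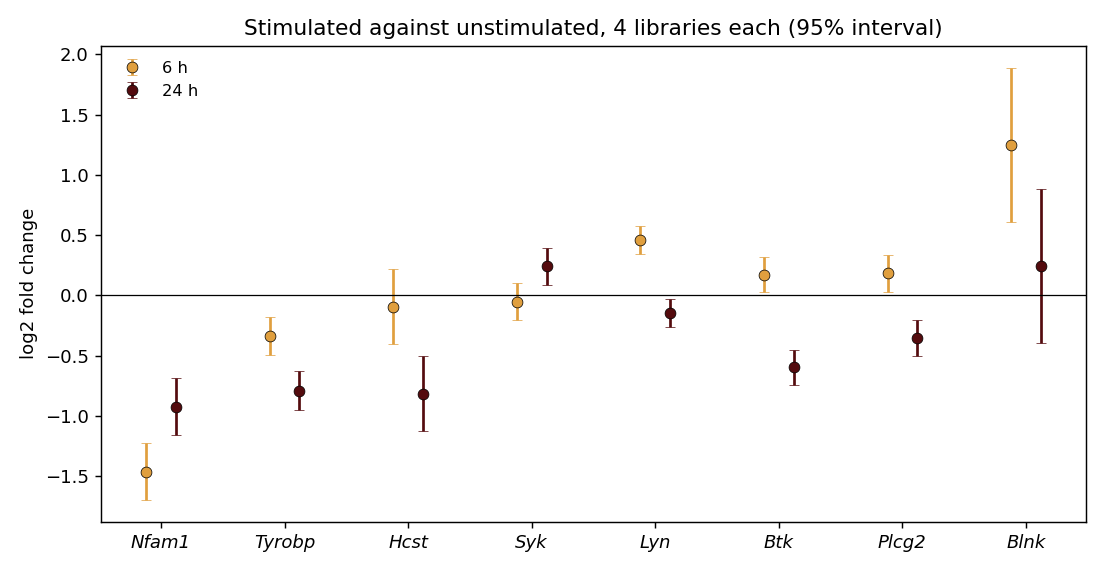
Log2 fold change of each member with the stimulus (y axis) at 6 h and 24 h, as estimates with 95% intervals from limma on the deposited values, 4 libraries per group. Nfam1 lies lowest at 6 h (-1.46) and 24 h (-0.92), and Lyn, Btk and Plcg2 lie above 0 at 6 h and below 0 at 24 h.

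The direction of the small changes at 6 h depended on the scaling. Lyn, Btk and Plcg2 were higher as deposited and when libraries were centred on their medians (0.63, 0.34 and 0.35), but lower with quantile normalization (-0.51, -0.24 and -0.68) and when scaled by library totals alone (-0.27, -0.56 and -0.55). Own totals and centring on medians shift all genes of a library alike, so distance from the median of all genes stays nearly fixed. As deposited, Lyn, Btk and Plcg2 lay 0.58, 0.30 and 0.31 above that median. Under quantile normalization they lay 0.29, 0.02 and 0.45 below it. Nfam1 was lower under all 4 scalings at 6 h (-2.19 to -1.29) and at 24 h (-1.39 to -0.91). Tyrobp was lower under all 4 as well, by -1.34 to -0.17 at 6 h and -1.35 to -0.78 at 24 h. The rise of Syk at 24 h turned to -0.32 with quantile normalization and -0.09 with own totals. Blnk at 6 h stayed above 0 under all 4, and with own totals it did not pass (0.52, limma adjusted p = 0.112).

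**Figure D3:**
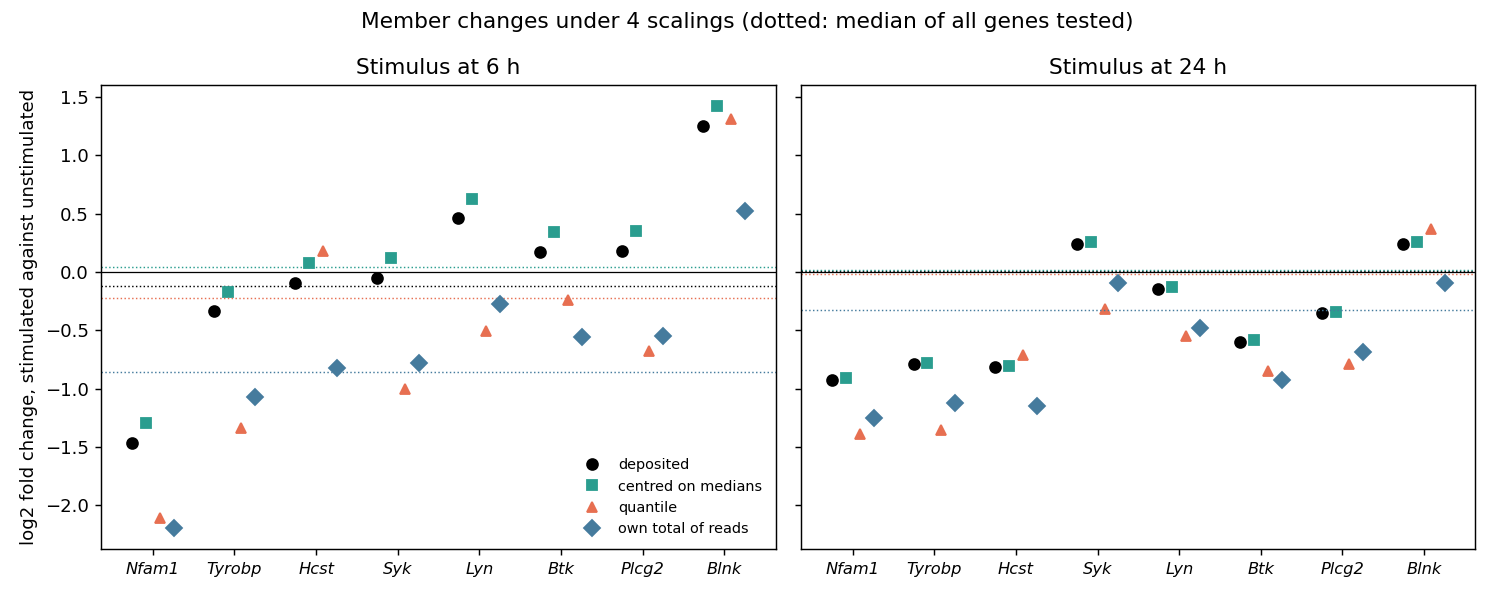
Log2 fold change with the stimulus (y axis) of each member at 6 h (left) and 24 h (right) under the deposited scaling and 3 others, with dotted lines at the median of all genes tested under each. Nfam1 and Tyrobp stay below 0 under all 4 scalings, while Lyn, Btk and Plcg2 change sign at 6 h.

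From 6 to 24 h in culture the members were compared with and without the stimulus. Time and any batch that goes with it cannot be told apart. Without the stimulus 6 of 8 passed (limma), 5 higher and 1 lower, beside 61.7% of all genes, 32.9% higher and 28.8% lower. For 5 members the libraries of the 2 times did not overlap, as for 58.8% of all genes. Blnk rose 11.8-fold (log2 3.56, SE 0.30, adjusted p = 2.79e-08) and was the only one past 2-fold, which 20.8% of all genes passed. Hcst rose 1.8-fold (log2 0.85, adjusted p = 9.76e-05), Syk by 0.38 and Plcg2 by 0.32 on the log2 scale, and Lyn fell by 0.29. Nfam1 was 0.31 higher (SE 0.11, adjusted p = 0.0254), a call that was lost when library 3, 4, 44 or 45 was left out (adjusted p 0.0564 to 0.103). Tyrobp (0.04, 95% interval -0.12 to 0.20) and Btk (-0.03, 95% interval -0.17 to 0.12) did not pass.

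With the stimulus 7 of 8 passed between the times (limma), 3 higher and 4 lower, beside 74.3% of all genes, 38.7% higher and 35.7% lower. For 6 members the libraries did not overlap, as for 67.9% of all genes. Blnk again rose most, 5.86-fold (log2 2.55, SE 0.30, adjusted p = 7.10e-07). Nfam1 was 1.8-fold higher than at 6 h (log2 0.85, SE 0.11, adjusted p = 2.63e-06) and Syk rose 1.6-fold (log2 0.68, adjusted p = 1.87e-07). Lyn fell 1.86-fold (log2 -0.90, adjusted p = 1.42e-10), Btk 1.74-fold (log2 -0.79, adjusted p = 1.23e-08) and Tyrobp 1.33-fold (log2 -0.41, adjusted p = 8.50e-05; 0.06 and -0.04, not passing, with quantile normalization and own totals). Plcg2 was 0.22 lower as deposited (adjusted p = 0.0112), and 0.24 higher with quantile normalization and 0.16 higher with own totals.

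Markers of other cells also moved with time in culture. The 4 listed of 8 B cell markers summed to 6.29 to 7.48 CPM at 6 h and 22.2 to 29.5 CPM at 24 h without the stimulus, and to 1.69 to 2.53 and 2.8 to 6.38 CPM with it. Without the stimulus Cd79b was 3.44 to 3.9 CPM at 6 h and 5.96 to 16.4 CPM at 24 h and Cd22 was 0.313 to 1.74 and 8.47 to 14.7 CPM, while Cd79a stayed at or below 1.22 CPM, and Ms4a1, Pax5 and Ebf1 are not among the listed genes. In stimulated libraries at 24 h Blnk was at 11.9 to 15 CPM and these markers summed to 2.8 to 6.38 CPM. Levels of different genes do not compare numbers of cells. The 11 neutrophil markers summed to 116 to 273 CPM at 6 h and 649 to 1147 CPM at 24 h without the stimulus, and to 100 to 367 and 127 to 217 CPM with it. At 24 h 10 of the 11 passed lower with the stimulus (median log2 fold change -2.12, limma), beside 35.9% of all genes. The 6 dendritic cell markers summed to 37 to 46.1 CPM at 6 h and 121 to 214 CPM at 24 h without the stimulus, where 5 of 6 rose with time. With it they summed to 50.7 to 118 and 118 to 248 CPM, of which Ccr7 was 16.2 to 66.7 and 83.7 to 211 CPM. There 2 of 6 passed higher and 2 lower with time (limma, median log2 fold change -0.02), while Blnk rose with and without the stimulus. The part of these cells in the members' levels was not tested.

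The effect of the stimulus differed between the times for each of the 8 members as a test of the difference itself (limma interaction, adjusted p 2.64e-06 to 0.0472), beside 64.7% of all genes, 33.9% with a positive and 30.7% with a negative difference. The difference was positive for Nfam1 (0.54), whose fall was smaller at 24 h, and for Syk (0.29), and negative for the other 6, from -0.45 for Tyrobp to -1.01 for Blnk. Without the 4 libraries whose genotype labels disagree, 5 of 8 passed, beside 7367 of all 12620 genes. Nfam1 (0.41, limma adjusted p = 0.0813), Syk (0.25, 0.0879) and Blnk (-0.71, 0.303) did not. With quantile normalization 4 passed, beside 8111 of all 12782 genes, and Tyrobp (-0.01), Lyn (-0.04), Plcg2 (-0.12) and Blnk (-0.95) did not. With own totals 4 passed, beside 8929 of all 12782 genes, and Tyrobp (-0.06), Hcst (-0.33), Plcg2 (-0.14) and Blnk (-0.61) did not. Nfam1, Syk and Btk passed under both. Blnk also lost the call when any of 13 of the 16 libraries was left out (adjusted p 0.0517 to 0.103).

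For the genotype, no member passed at 6 h. Without a stimulus 19 of 12111 genes tested did (0.157%), and with it 5 did (0.0413%). At an unadjusted p under 0.05 the counts were 1 member beside 8.74% of all genes without a stimulus, and 2 members beside 12.6% with it. No gene passed for the difference between the stimuli, and 846 genes (6.99%), 2 members among them, had an unadjusted p under 0.05 there (limma).

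Nfam1 was that member without a stimulus. It was 1 of 5 members whose genotypes did not overlap there, with Hcst, Lyn, Btk and Plcg2, as did not 42.3% of all genes. Its 2 NFAM1-/- libraries (299 and 321 CPM) lay below its 2 NFAM1+/+ libraries (432 and 408 CPM), a 1.35-fold difference (log2 -0.44, SE 0.07, unadjusted p = 1.85e-04, limma adjusted p = 0.0799). In a limma fit of only these 4 libraries the adjusted p was 0.0226, and 99 of 11275 genes passed there. Without library 4 no gene passed in the fit of the 6 h libraries. With the stimulus the NFAM1-/- libraries (135 and 127 CPM) lay around the NFAM1+/+ ones (133 and 129 CPM), and the difference was -0.01 (95% interval -0.17 to 0.16, limma adjusted p = 0.978). The difference between the stimuli was 0.43 (SE 0.10, unadjusted p = 0.00229, limma adjusted p = 0.614), which did not pass. The row of Nfam1 thus held reads in all NFAM1-/- libraries, 6442 to 38084 of them in the libraries whose labels agree.

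Tyrobp and Syk were the 2 members with an unadjusted p under 0.05 in stimulated cells. Tyrobp was 587 and 636 CPM in NFAM1+/+ and 762 and 715 CPM in NFAM1-/- (log2 0.27, SE 0.08, limma adjusted p = 0.323). Syk was 486 and 442 CPM in NFAM1+/+ and 414 and 382 CPM in NFAM1-/- (log2 -0.22, SE 0.08, limma adjusted p = 0.352). Neither set of libraries overlapped, nor did that of Btk, and 43% of all genes tested did not overlap in this comparison either. Library 26, 1 of the 2 NFAM1+/+ libraries, stood apart from the other 3 stimulated ones, with a chi-square per gene of 73.1 to 119 against 19.6 to 30 among these. Without library 10, the other NFAM1+/+ library, 1111 genes passed in place of 5, and Tyrobp was among them (0.33, limma adjusted p = 0.0351). In that fit library 26 alone stands for NFAM1+/+ and is assumed to vary like the other groups.

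None of the other differences between genotypes passed. Without a stimulus the estimates of Tyrobp, Hcst, Syk, Lyn, Btk, Plcg2 and Blnk ran from -0.01 for Syk to 0.32 for Hcst. With it those of Hcst, Lyn, Btk, Plcg2 and Blnk ran from -0.79 for Blnk to 0.25 for Hcst. The intervals were widest for Blnk, -1.95 to 0.37 with the stimulus, and narrowest for Btk, -0.05 to 0.25. Among the 61 other pathway genes tested, none passed for the genotype with or without the stimulus. The only gene of any list that passed was the neutrophil collagenase Mmp8, a marker of another cell type, which was 1.01 higher on the log2 scale in stimulated NFAM1-/- libraries (SE 0.12, limma adjusted p = 0.0338). Of the 10 neutrophil markers tested, Mmp8 included, 3 were above 0, with a median of -0.46, and Ngp stood at -1.01 and S100a9 at -0.81, neither passing. The neutrophil markers together summed to 100 to 367 CPM in the 4 stimulated libraries, and their part in the genotype comparisons was not tested.

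**Figure D4:**
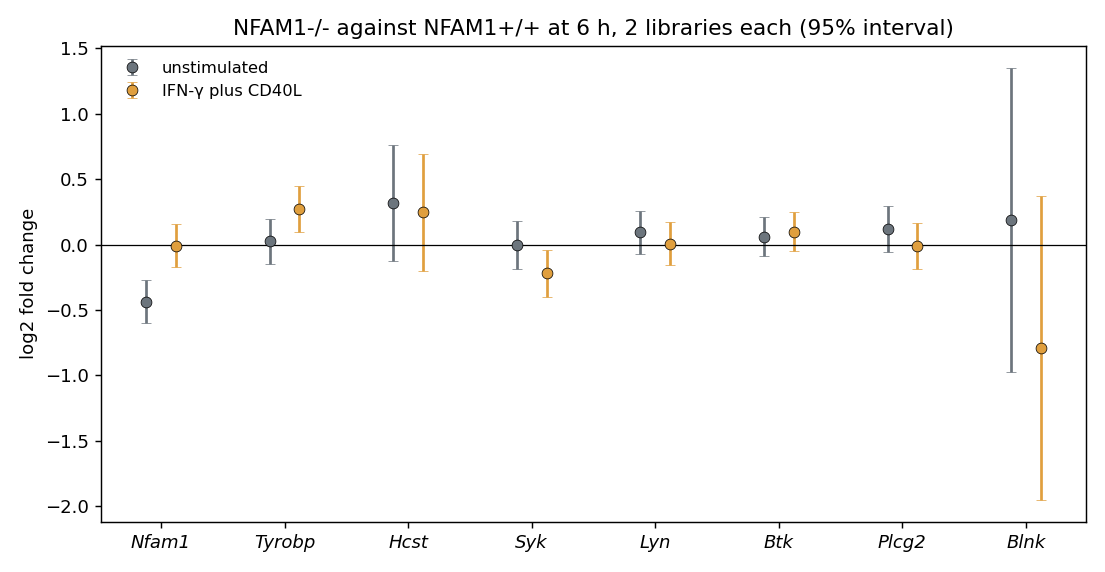
Log2 fold change of NFAM1-/- against NFAM1+/+ at 6 h (y axis) for each member without and with the stimulus, with 95% intervals from limma, 2 libraries per group. The interval of Nfam1 lies below 0 without the stimulus (-0.60 to -0.27) and spans 0 with it (-0.17 to 0.16).

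At 24 h 1 library per genotype and stimulus has labels that agree, so these libraries allow no test. Nfam1 was 495 CPM in the NFAM1+/+ and 441 CPM in the NFAM1-/- library without a stimulus, and 252 and 201 CPM with it, log2 differences of -0.17 and -0.33. When all 8 libraries were grouped by title the differences were -0.20 (limma adjusted p = 0.385) and -0.30 (0.108), and by the genotype tag they were 0.04 (1) and -0.02 (1). No member passed under either reading, while 114 and 37 of 12164 genes did by title (0.937% and 0.304%) and 1 and 0 by tag (0.00822% and 0%). Of the other members, Hcst differed most between the single libraries with the stimulus, 7.61 CPM in NFAM1+/+ and 10.4 CPM in NFAM1-/-.

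The other genes of the pathway were described from 6 lists, whose own counts below include the members they hold. Of 62 pathway genes tested besides the members, 29 passed higher and 23 lower at 6 h, with a median of 0.11 beside -0.13 over all genes. At 24 h 23 passed higher and 32 lower, with a median of -0.27 beside 0.01. Of all genes 34.3% passed higher and 42.6% lower at 6 h, and 37.4% and 35.9% at 24 h. The deposited counts of each list are to be read against these shares. With own totals of reads the counts at 6 h were 16 higher and 39 lower. Of all 12782 genes 11224 then passed, 21.2% of these higher, and at 24 h 9618, 31.5% higher. With quantile normalization 9814 passed at 6 h, 38.7% of these higher, and 9250 at 24 h, 49.4% higher. Centred on medians, 9711 passed at 6 h, 52.7% of these higher. List counts under these scalings are to be read against these values.

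Among the receptors and adaptors with an ITAM or a related motif, such as Tyr-x-x-Met in Hcst, 2 of 8 tested passed higher and 4 lower at 6 h. At 24 h 2 passed higher and 6 lower. Fcer1g, whose motif is shown above, was 558 ± 26.2 CPM without and 768 ± 41.3 CPM with the stimulus at 6 h (SD, n = 4 each; log2 0.46, limma adjusted p = 5.80e-05) and 0.50 higher at 24 h, but -0.58 and -0.10 with quantile normalization and -0.27 at 6 h with own totals. Clec7a, the β-glucan receptor Dectin-1 with a single tyrosine motif, fell from 521 ± 43.7 to 209 ± 16.9 CPM at 6 h and from 565 ± 23.6 to 177 ± 66.7 CPM at 24 h, under all 4 scalings. Cd247, the CD3 zeta chain, rose from 0.295 ± 0.198 to 4.7 ± 1.63 CPM at 6 h. Cd79b, of the B cell receptor, fell from 3.63 ± 0.199 to 0.686 ± 0.193 CPM at 6 h and from 12 ± 4.45 to 2.77 ± 1.22 CPM at 24 h, and Cd79a fell at 24 h (log2 -2.06).

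Receptors that signal through TYROBP or HCST held the widest changes. Of 13 tested, 2 passed higher and 8 lower at 6 h, and 4 higher and 7 lower at 24 h. Cd300lb, an activating CD300 receptor that pairs with TYROBP, fell from 305 ± 19 to 1.74 ± 0.553 CPM at 6 h (log2 -7.51, SE 0.18, limma adjusted p = 2.22e-16) and from 235 ± 10.1 to 1.02 ± 0.211 CPM at 24 h. Klrk1 (NKG2D), which signals through HCST, rose from 9.68 ± 1.09 to 419 ± 20.5 CPM at 6 h (log2 5.44, SE 0.20, limma adjusted p = 6.33e-14) and from 13.9 ± 3.18 to 83.7 ± 30.5 CPM at 24 h. Trem2, a lipid-sensing receptor, fell from 281 ± 39.7 to 5.63 ± 1.29 CPM at 24 h (log2 -5.66). Trem1 and Trem3 fell at 6 h by 1.53 and 1.76 on the log2 scale. Clec5a rose from 258 ± 37.4 to 533 ± 25.5 CPM at 6 h, but did not pass with quantile normalization (0.15) or own totals (0.33), and was 0.68 higher at 24 h (0.34, not passing, with own totals). Pilrb1 rose by 1.21 and Siglech, also a marker of plasmacytoid dendritic cells, fell by 2.41 at 24 h on the log2 scale.

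All 6 listed Src-family kinases passed higher at 6 h on the deposited scale, with a median of 1.32, and 4 passed higher and 1, Lyn, lower at 24 h, with a median of 1.33. With own totals 3 were higher and 2 lower at 6 h, and with quantile normalization 4 and 2. Fyn rose from 97.8 ± 8.06 to 519 ± 29.1 CPM at 6 h and from 41.5 ± 2.2 to 118 ± 9.95 CPM at 24 h. Src rose by 2.21 on the log2 scale at 24 h, to 10 ± 1.49 CPM. Lck, best known from T cells, rose at 6 h from 0.118 ± 0.144 to 2.88 ± 0.239 CPM.

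Of the SYK and TEC families, 4 genes were tested, Syk, Btk, Tec and Bmx, of which 2 passed higher and 1 lower at 6 h (none and 3 with own totals) and 1 higher and 3 lower at 24 h. Tec was 33 ± 3.22 CPM without and 60.7 ± 4.33 CPM with the stimulus at 6 h (log2 0.88, limma adjusted p = 5.90e-08; 0.15 and not passing with own totals) and fell from 49.3 ± 5.25 to 14.3 ± 0.905 CPM at 24 h. Bmx fell from 6.85 ± 1.47 to 0.244 ± 0.0802 CPM at 6 h and from 8.68 ± 2.57 to 0.119 ± 0.0314 CPM at 24 h. Like Btk, Tec was thus above the unstimulated level at 6 h and below it at 24 h on the deposited scale.

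Adaptors and effectors below SYK passed in both directions, 15 higher and 9 lower of 26 at 6 h and 9 higher and 13 lower at 24 h on the deposited scale. The balance at 6 h turned to 8 higher and 15 lower with own totals and 11 and 13 with quantile normalization, and at 24 h these gave 5 and 17, and 5 and 16. Rasgrp1, an exchange factor for Ras that binds the diacylglycerol PLCG2 makes, rose from 20 ± 6.11 to 127 ± 28.5 CPM at 6 h and from 25.3 ± 13.9 to 428 ± 31.5 CPM at 24 h (log2 4.28, SE 0.34, limma adjusted p = 3.44e-09). The calcium channel Itpr1 rose from 30.7 ± 2.26 to 234 ± 83.3 CPM at 6 h and Itpr2 fell from 55.9 ± 7.02 to 17.1 ± 2.19 CPM at 24 h. Lcp2 (SLP-76), the scaffold that takes the place of BLNK in many myeloid cells, rose from 172 ± 18.4 to 651 ± 18 CPM at 24 h (log2 1.93, SE 0.07, limma adjusted p = 1.34e-13). Malt1 rose from 83.8 ± 13.2 to 1171 ± 120 CPM at 24 h, and Card9, its partner below SYK in myeloid cells, fell from 161 ± 5.29 to 51.5 ± 6.59 CPM at 6 h. The PI3-kinase adaptor Pik3ap1 rose by 2.51 at 6 h, and the catalytic subunit Pik3cg fell by 1.97 at 6 h and 1.35 at 24 h on the log2 scale. Prkcb fell by 1.5 at 6 h and Vav3 by 2.50 at 24 h.

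Negative regulators were 6 higher and 3 lower of 13 at 6 h, and 4 higher and 8 lower at 24 h, on the deposited scale. At 6 h they were 3 higher and 8 lower with own totals, 4 and 8 with quantile normalization and 9 and 3 when centred on medians. The phosphatase Ptpn22 fell from 87.7 ± 6.64 to 7.67 ± 1.17 CPM at 6 h (log2 -3.52, SE 0.14, limma adjusted p = 1.41e-13) and from 83.4 ± 3.16 to 8.38 ± 2.11 CPM at 24 h. Ptpn6 (SHP-1) rose from 562 ± 66.2 to 1362 ± 97.9 CPM at 24 h. The ubiquitin ligase Cblb rose by 2.41 at 6 h and 1.40 at 24 h, and the phosphatase Ubash3b by 1.22 and 1.41, on the log2 scale. Dok2 rose by 2.87 at 6 h and fell by 1.32 at 24 h, while Dok3 and Pag1 fell by 1.24 and 0.87 at 6 h. Csk, which holds Src-family kinases inactive, fell from 259 ± 12.6 to 127 ± 3.12 CPM at 24 h.

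**Figure D5:**
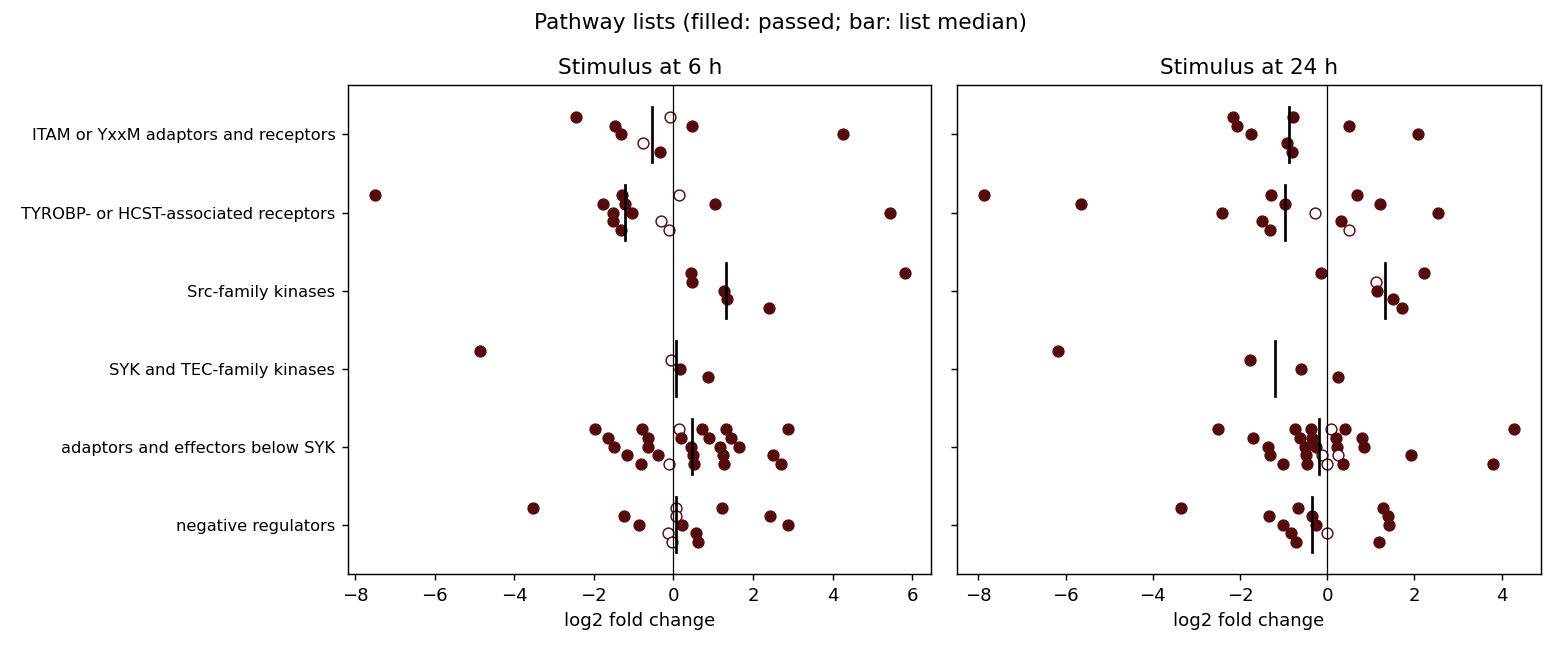
Log2 fold change with the stimulus (x axis) of every tested gene of the 6 pathway lists (y axis) at 6 h (left) and 24 h (right) on the deposited scale, filled where the gene passed, with a bar at each list's median. The Src-family kinases have medians of 1.32 and 1.33, and Cd300lb is the leftmost point at both times (-7.51 and -7.88).

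The genes whose levels ran most like Nfam1 over the 16 libraries, among genes with a mean of at least 10 CPM, were Necap1 (r = 0.979), Atp2a2 (0.977), Clec4a3 (0.976), Ubald1 (0.975) and Cd300ld (0.975). The r is Pearson's over 16 log2 values, and the libraries share 4 classes of stimulus and time, so it mostly describes the pattern over these classes. All 5 were lower with the stimulus at 6 h (log2 -4.56 to -0.97) and at 24 h (-3.34 to -0.69). The other members ran less like it, from 0.58 for Hcst to -0.64 for Lyn.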

How the data were processed

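RNA of mouse monocytes was sequenced as non-stranded, poly(A)-selected libraries. Per the labels and the study's methods, the authors aligned reads with STAR (GRCm39), counted them with Rsubread and normalized them with edgeR and limma-voom. Filters and versions are not given in the sources used here. The deposited table holds log2 CPM values for 13085 genes in 16 libraries. All values (100%) could be turned back into whole reads, taking the offset of 0.5 that voom adds, and so gave each library's depth.

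Genes reaching 1 CPM in 2 or more libraries of a fit were fitted with limma 3.58.1 in R 4.3.3 (moderated test, prior variance with trend). The comparisons of stimulus and time used 16 libraries in 4 classes (12782 genes, 12 residual degrees of freedom), with genotype in the residual. Genotype was tested in the 8 libraries at 6 h (12111 genes, 4 residual degrees of freedom). A gene passed at a Benjamini-Hochberg adjusted p under 0.05. The steps were tested on simulated data. Count models were not run because the deposited unit is log2.

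Members and lists were chosen with earlier results of these data known. Genes named from a list are the 3 largest rises and falls that passed at 6 h and at 24 h, and any that passed for genotype. Some items that this rule or the marker lists name are not reported here. Alternatives were other filters, scalings, priors and weights, the 2-fold threshold, fewer libraries and leaving out each library. Leaving out the 4 libraries whose labels disagree was chosen after seeing the data. Sums of CPM per kb use the union of GENCODE vM21 exons.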

Additional observations from a re-analysis of the deposited data

Results flagged for a closer look

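The effect of the stimulus differed between 6 h and 24 h for all 8 members, by limma's interaction of stimulus and time (24 h effect minus 6 h effect, log2). It was 0.54 for Nfam1 (adjusted p = 0.00652) and 0.29 for Syk (0.0186), and -0.45 for Tyrobp (0.00125), -0.72 for Hcst (0.00624), -0.60 for Lyn (2.96e-06), -0.77 for Btk (2.64e-06), -0.54 for Plcg2 (1.67e-04) and -1.01 for Blnk (0.0472). Of all genes tested 64.7% passed this test. With quantile normalization 8111 of 12782 did, and with own totals of reads 8929. With quantile normalization Tyrobp (-0.01), Lyn (-0.04), Plcg2 (-0.12) and Blnk (-0.95) did not pass, and with own totals of reads Tyrobp (-0.06), Hcst (-0.33), Plcg2 (-0.14) and Blnk (-0.61) did not. No single library lay far from the other 3 of its class by Dixon's ratio at the 95% level for any member, in 32 tests.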

How the results depend on the processing

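No paired analysis was possible because the libraries' numbers are all different, so the groups compared share none, and no source says which libraries came from the same mouse. With a change of at least 2-fold as well, 2 members passed for the stimulus at 6 h and 0 at 24 h, beside 39.6% and 33.2% of all genes. For time without the stimulus 1 member passed, beside 20.8% of all genes. Blnk also passed at this threshold for time with the stimulus (log2 2.55) and for stimulus by time (-1.01). A share of all genes at 2-fold was not computed there, so no count is read from these comparisons. Of the other pathway genes 18 were then higher at 6 h, and others passed lower by at least 2-fold there, among them Cd300lb (log2 -7.51) and Ptpn22 (-3.52). At 24 h the other pathway genes were 14 higher and 19 lower. They were 8 and 8 for time without and 10 and 14 for time with the stimulus, and 5 and 17 for stimulus by time. With own totals of reads and no 2-fold threshold, the other pathway genes were 16 higher and 39 lower at 6 h. Of all 12782 genes 11224 passed there, 2382 of them higher. For time with the stimulus 21 pathway genes were lower, and 9894 of all genes passed, 6892 of them higher. For stimulus by time 28 pathway genes were higher and 4 members passed, beside 8929 of all genes, 6317 of them higher. Quantile normalization left 4 members for stimulus by time, beside 8111 of all 12782 genes. It left 2 pathway genes lower for the genotype without a stimulus, where 41 of all 12111 genes passed. In a fit of only the libraries compared the latter count of pathway genes was 3, with 1 member, Nfam1, beside 99 of all 11275 genes. Leaving out the 4 libraries whose labels disagree left 5 members for stimulus by time, beside 7367 of all 12620 genes. Leaving out 1 library at a time gave 0 to 1 members, 0 to 4 pathway genes higher and 0 to 8 lower for the genotype with the stimulus, and 0 to 1 of each for the genotype by stimulus, the upper values without library 10. The Nfam1 differences at 24 h were -0.204 and -0.302 by title and 0.039 and -0.023 by tag.

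Directions that turned, as log2 values, were as follows. With quantile normalization they were Hcst 0.176, Lyn -0.51, Btk -0.243 and Plcg2 -0.676 for the stimulus at 6 h, Syk -0.322 at 24 h, Btk 0.003 for time without the stimulus, Tyrobp 0.057, Hcst -0.039 and Plcg2 0.239 for time with it, Nfam1 0.007 and Plcg2 0.007 for the genotype with the stimulus and Btk -0.002 for genotype by stimulus. Centring on medians turned Hcst (0.076) and Syk (0.116) at 6 h, Hcst (-0.048) for time with the stimulus and Lyn (-0.019) for the genotype with it. Own totals turned Lyn (-0.272), Btk (-0.56) and Plcg2 (-0.548) at 6 h, Syk (-0.093) and Blnk (-0.093) at 24 h, Plcg2 (0.157) for time with the stimulus, Syk (0.011) for the genotype without and Nfam1 (0.002) and Plcg2 (0.001) with it. Without the 4 libraries, Btk for time without the stimulus was 0.011. Leaving out 1 library turned only estimates that had not passed: Hcst (range -0.178 to 0.039) and Syk (-0.112 to 0.004) at 6 h, Hcst (-0.005 to 0.216) for time with the stimulus, Tyrobp (-0.017 to 0.066), Syk (-0.063 to 0.053) and Blnk (-0.409 to 0.79) for the genotype without the stimulus, Nfam1 (-0.052 to 0.036), Hcst (-0.028 to 0.521), Plcg2 (-0.106 to 0.087) and Lyn (-0.064 to 0.08) with it, and Hcst (-0.345 to 0.203) for genotype by stimulus. The cause was not tested. The genotype comparisons rest on 2 libraries per group, and Blnk at 6 h on 51 to 230 reads per library.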

Other observations

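Changes of the pathway lists between 6 and 24 h are given without a test of the lists. Without the stimulus 25 of the 62 other pathway genes tested passed higher and 18 lower (limma), and with it 18 passed higher and 33 lower, with medians of 0.11 and -0.32 beside 0.04 and 0.04 over all genes. Of all genes 32.9% passed higher and 28.8% lower without the stimulus, and 38.7% and 35.7% with it. With own totals of reads the counts with the stimulus were 27 higher and 21 lower, and with quantile normalization 22 and 24. Of all 12782 genes 9894 passed there with own totals, 69.7% of these higher. With quantile normalization 9271 passed, 55.6% of these higher. Of 6 Src-family kinases 4 passed lower and none higher without the stimulus, and 5 lower and 1 higher with it. Negative regulators were 5 higher and 4 lower of 13 without the stimulus and 3 higher and 8 lower with it. These list counts and medians are on the deposited scale, and own totals of reads moved the median of all genes for time with the stimulus from 0.04 to 0.42.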
